A study of Mus musculus with 24 samples.

Results

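Nuclear receptors are transcription factors whose activity is set by small lipid-soluble ligands, by partner receptors and by the cofactors they hold. Without an activating ligand many of them bind corepressor complexes built on scaffolds such as NCoR1, in which TBL1 (gene Tbl1x) and TBLR1 (gene Tbl1xr1) are subunits beside HDAC3 and GPS2. On ligand binding these complexes are exchanged for coactivators such as PGC-1α (gene Ppargc1a), which in brown fat is known for raising mitochondrial and thermogenic genes in the cold. The genes described here are 38 listed nuclear receptor genes, taken by symbol from a list with no cutoff on a measured value. The count table held 30 of them among its 12615 genes, and all 30 passed the filter on low counts. The other 8, Rarb, Vdr, Esrrb, Nr3c2, Pgr, Nr4a1, Nr4a3 and Nr2f6, had no row in the table, so nothing is said of their levels.

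RNA from tissue labelled as brown fat was sequenced in 24 female mice, 6 in each combination of labelled genotype and temperature. All mice carried floxed alleles of Tbl1xr1 and Tbl1x (TBRL1f/f;TBL1f/f in the labels) and all received tamoxifen, with housing at the test temperature begun 3 weeks after the last dose. BATdKO mice also carried Ucp1CreERT2, a tamoxifen-dependent Cre recombinase under the Ucp1 promoter, and Cre- mice lacked it. The promoter limits recombination to thermogenic adipocytes, so other cells of the tissue keep both genes. Mice were raised at 22°C and then spent 4 days at 30°C, where brown fat is little used, or 6 days at 8°C after 1 day each at 18°C, 16°C and 12°C. The labels give the age at tamoxifen as 5 years and the study's methods give it in weeks. The study's text also describes male mice, smaller groups and fewer days at 8°C for this sequencing, and the labels were followed here. The comparisons asked what cold did to the receptor genes in each genotype, what the genotype did at each temperature, and whether both acted together.

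Counts on genes ranged from 699703 to 11527643 per library, and only Cre- m4 at 30°C had fewer than 2738613. In that library 1 count was worth 1.37 CPM, the count per library scaled to a common TMM-normalized library size. The libraries of each temperature were numbered in a block of their own, so temperature and library block cannot be told apart.

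Both targeted genes went against the labels. Tbl1xr1 at 8°C was between 33.8 and 44.3 CPM in the 6 libraries labelled BATdKO and between 18.2 and 24.6 CPM in those labelled Cre-, a log2 difference of 0.92 ± 0.17 (SE, adjusted p = 0.00349). Tbl1x was higher by 0.39 ± 0.10 (adjusted p = 0.0633). At 30°C, 5 of 6 libraries labelled BATdKO held 29.8 to 42.0 CPM of Tbl1xr1, and BATdKO m6 held 17.0 CPM. Among the 30°C libraries labelled Cre-, m6 held 38.6 CPM and the other 5 held 16.4 to 24.6 CPM. Ucp1 split the same way at 30°C, with 548 CPM in Cre- m6 against 28.9 to 133 CPM in the other Cre- libraries, and 84.7 CPM in BATdKO m6 against 217 to 412 CPM in the other BATdKO libraries. The 3′ tags may lie outside the deleted exons, which the labels do not name, so these genes do not by themselves check which mice recombined. Genotypes are therefore written as labelled, and no mouse was moved between groups. The receptors called or nearest the threshold are given with and without both m6 libraries, as are Ucp1 and Dio2. So are the pathway list counts that this moves by more than 1.5 times. The other pathway genes are given with all mice, as are the marker counts unless stated. Both m6 libraries were singled out by Tbl1xr1 and Ucp1, so values of these genes without them are fixed in part by that choice. The summed level of 9 adipocyte markers, Ucp1 not among them, split in a similar way at 30°C. It was 4413 CPM in Cre- m6 against 1020 to 3000 CPM in the other Cre- libraries. In BATdKO m6 it was 1472 CPM against 2390 to 5144 CPM in the other BATdKO libraries. Counts of lists that hold adipocyte genes are therefore also fixed in part by that choice when both m6 libraries are left out.

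**Figure D1:**
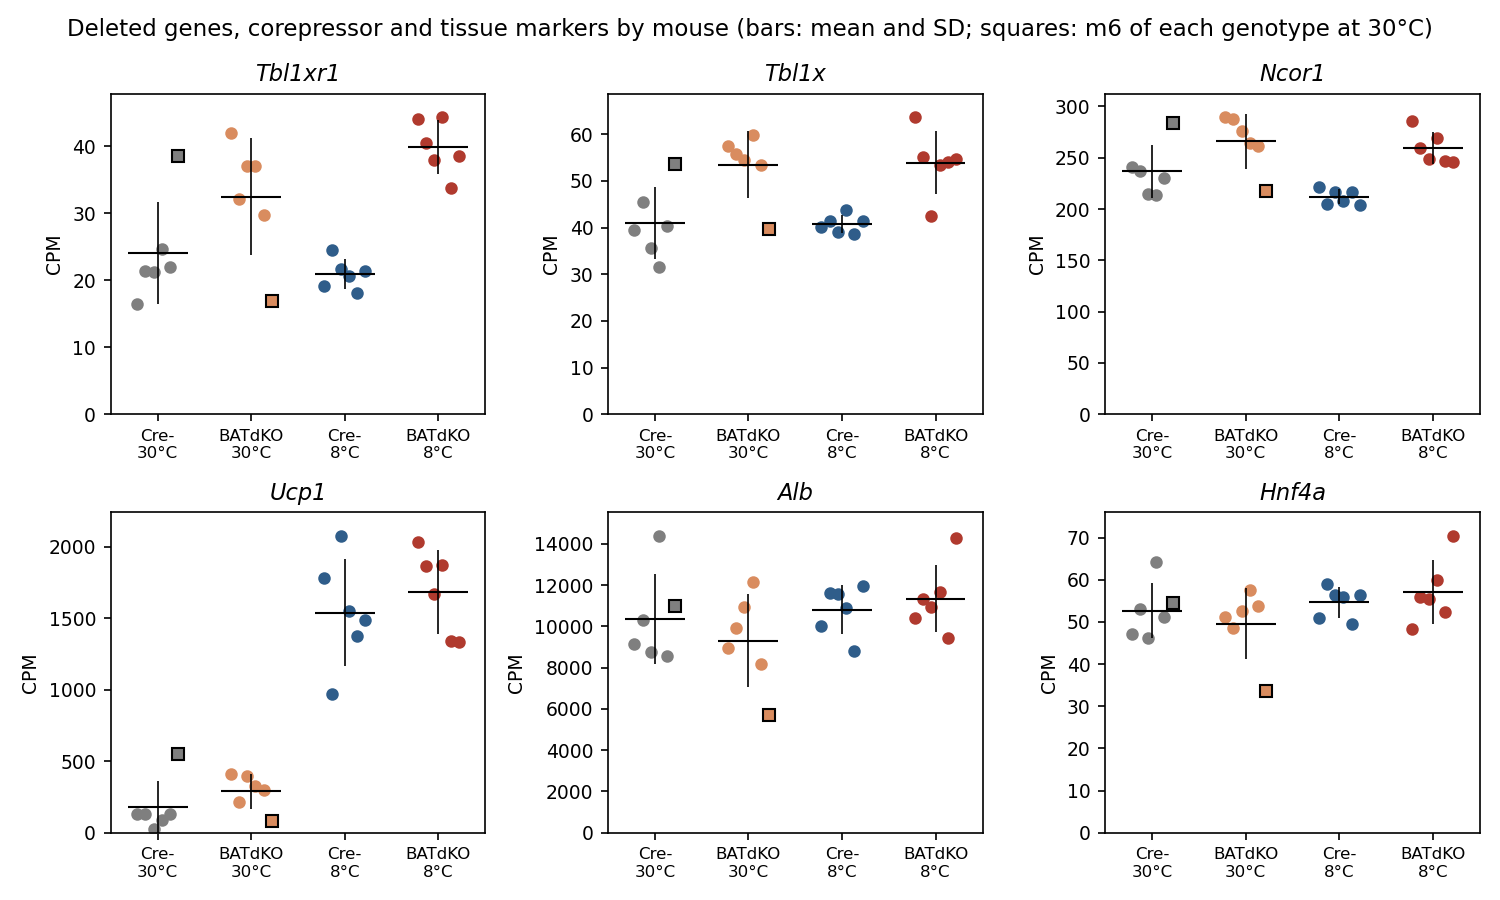
CPM of Tbl1xr1, Tbl1x, Ncor1, Ucp1, Alb and Hnf4a in each of the 24 mice, with the group mean and SD as lines and m6 of each genotype at 30°C as squares. The square labelled Cre- (38.6 CPM of Tbl1xr1) sits among the libraries labelled BATdKO, and the square labelled BATdKO (17.0 CPM) among those labelled Cre-.

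All 24 libraries also held abundant liver RNA. The 12 hepatocyte markers together made up 32020 to 47170 CPM, with group medians from 38145 to 41120 CPM, and none was at 0 in any library. Alb alone was 0.633% to 1.51% of all counts, and 38 Mup genes and pseudogenes, which encode major urinary proteins, were 11.4% to 17.5%. The 11 brown adipocyte markers in the table summed to 438 to 2002 CPM at 30°C and to 1907 to 3548 CPM at 8°C, and the 9 adipocyte markers to 1020 to 6116 CPM. Of the 12 hepatocyte markers, 0 passed the threshold in any of the 5 comparisons. Their fitted log2 differences still leaned to 1 side in each. All 12 were higher under the BATdKO label at 8°C (median 0.09), and 10 were lower under it at 30°C (median -0.14). With cold 11 were lower in Cre- (median -0.05) and 10 were higher in BATdKO (median 0.17, 5 with an unadjusted p under 0.05). All 12 were positive in the interaction (median 0.23). The 12 skeletal muscle markers in the table summed to between 8.02 and 8865 CPM, and 10 of them were at 0 in some library. The summed ranges of the other marker lists were 226 to 332 CPM for macrophages (12 genes), 184 to 293 CPM for endothelium (10), 372 to 710 CPM for stroma and progenitors (12), 52.3 to 123 CPM for mural cells (8), 13.2 to 63.7 CPM for Schwann cells and nerve (3) and 19.0 to 44.6 CPM for B cells (2), and no T cell marker had a row. In such bulk RNA, fewer cells of a type and less RNA per cell cannot be told apart, and the part of liver RNA in the receptor levels was not tested.

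The receptor genes together made up 904 to 1022 CPM, median 977 CPM, in the 24 libraries. Lipid sensors held 43.3% of that sum (8 genes), clock receptors 14.8% (3), orphan receptors that mostly repress 12.8% (6) and RXR partners 11.5% (3). The mean level of the median receptor was 19.6 CPM, against 9.43 CPM for the median gene of the table. Each transcript gives a single tag near its 3′ end, so CPM values can be set beside each other between genes without division by length. How well each 3′ end was primed and mapped was not measured.

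Ppara, the fatty acid sensor that switches on oxidation genes, had the highest level. It ran from 179 to 232 CPM in Cre- mice at 30°C (median 215), from 194 to 242 CPM in BATdKO at 30°C (median 222), from 181 to 258 CPM in Cre- at 8°C (median 224) and from 201 to 219 CPM in BATdKO at 8°C (median 208). The 4 groups overlapped throughout, and the cold differences were 0.08 ± 0.08 (adjusted p = 0.663) in Cre- and -0.07 ± 0.08 (adjusted p = 0.735) in BATdKO on the log2 scale.

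Rxra, the obligate partner of many receptors in the list, was next. Its medians were 88.2 and 87.7 CPM in Cre- and BATdKO at 30°C and 82.6 and 87.4 CPM at 8°C, within a full range of 69.6 to 105 CPM. The interval of its cold difference was -0.30 to 0.02 in Cre- and -0.12 to 0.20 in BATdKO (log2, 95%). Nr2f2 (COUP-TFII), a repressor that opposes other receptors, had medians of 71.6 to 81.2 CPM in a range of 62.0 to 92.3 CPM. Rora, the activator that competes with REV-ERB for clock gene sites, had medians of 73.7 to 79.1 CPM in a range of 54.7 to 96.2 CPM. The ranges of Nr2f2 and Rora overlapped in every group, so their order is not set by these data. Nr3c1, the glucocorticoid receptor, came next at 39.6 to 84.5 CPM and is described with the cold comparison.

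Several receptors known mainly from liver were present in every group. Hnf4a, which holds hepatocytes in their mature state, had a mean of 53.5 CPM. Nr5a2 had 44.1 CPM, the bile acid receptor Nr1h4 (FXR) 20.6 CPM, and Nr0b2 (SHP), a repressor induced by FXR, 10.5 CPM. Nr1i3 (CAR), a xenobiotic sensor, was the lowest member at 1.39 CPM. These 5 genes, picked after their levels were seen, summed to 102 to 160 CPM, with group medians of 131 and 126 CPM (Cre- and BATdKO) at 30°C and 129 and 134 CPM at 8°C. None of the 5 passed the threshold in any comparison. In BATdKO m6 at 30°C, Hnf4a (33.5 CPM) and Nr0b2 (3.15 CPM) were the lowest of all 24 libraries, as was Alb (5686 CPM).

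Pparg, the master regulator of adipocytes, was only 13th of 30 by mean level, at 23.6 CPM. Its log2 differences had a standard error of 0.35 in each genotype and each cold comparison, the largest of any member except for cold in BATdKO, where Esrra had 0.48. Within Cre- mice at 30°C it ran from 4.33 CPM (m3) to 32.2 CPM (m1), and in BATdKO at 30°C from 13.0 to 43.2 CPM. The mouse with the lowest Pparg, Cre- m3, also had the lowest adipocyte marker sum of the 24 (1020 CPM), and the mouse with the highest, BATdKO m1 at 30°C, had the next to highest sum (5144 CPM). The groups overlapped widely. Its interval reached from -0.45 to 0.98 for cold in Cre- and from -1.09 to 0.34 for cold in BATdKO. A rise of up to about 2-fold in Cre- and a fall of about 2-fold in BATdKO were thus not excluded.

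**Figure D2:**
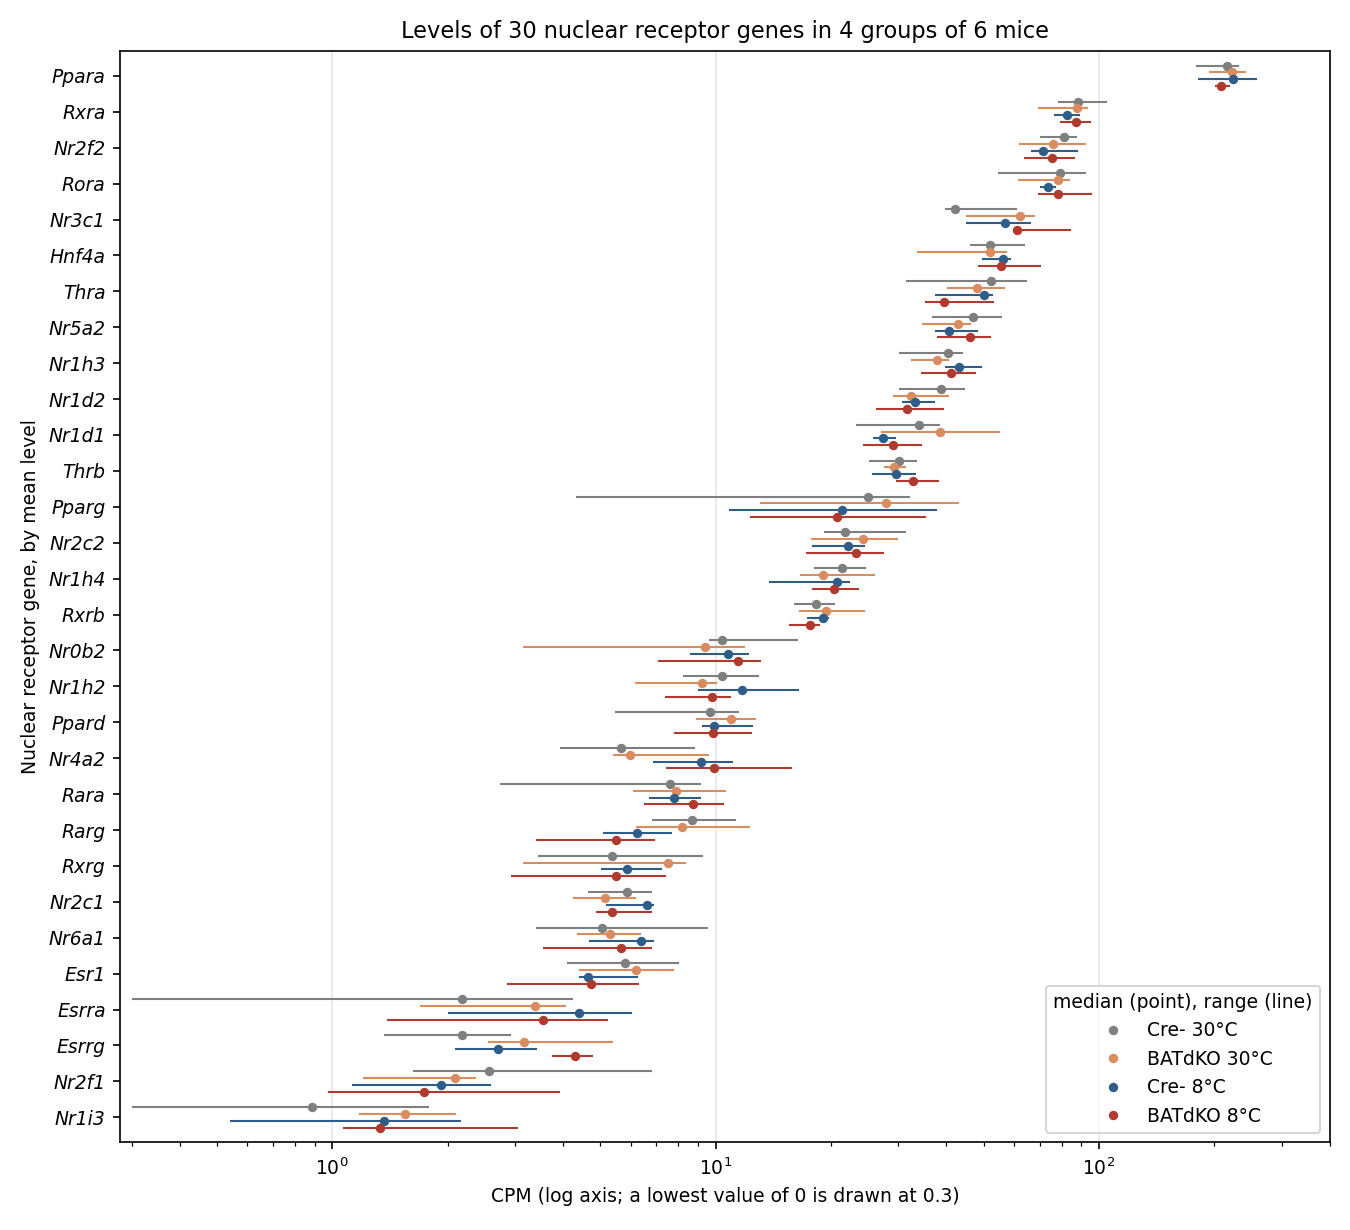
Level of the 30 receptor genes in CPM on a log axis, ordered by mean; points are medians and lines the range over 6 mice in each of the 4 groups. Ppara sits alone near 216 CPM, Nr1i3 is lowest at 1.39 CPM, and the line of Esrrg in cold BATdKO mice (3.74 to 4.79 CPM) stands clear of both Cre- lines. A lowest value of 0 is drawn at the left edge.

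Among the other lipid sensors Nr1h3 (LXRα, an oxysterol receptor) had a mean of 40.1 CPM, Nr1h2 (LXRβ) 10.2 CPM and Ppard 10.2 CPM. The thyroid hormone receptors Thra and Thrb stood at 46.6 and 30.4 CPM. The REV-ERB genes Nr1d2 and Nr1d1, which repress clock and lipid genes through NCoR1, stood at 34.2 and 32.4 CPM. Of the remaining partners Rxrb had 18.5 CPM and Rxrg 6.07 CPM, and the retinoic acid receptors Rara and Rarg had 7.83 and 7.27 CPM. Nr4a2, an immediate-early receptor that acts without a known ligand in its pocket, had 8.26 CPM. The orphan receptors Nr2c2, Nr2c1, Nr6a1 and Nr2f1 lay between 22.8 and 2.20 CPM, and the oestrogen receptor Esr1 at 5.41 CPM. The oestrogen-related receptors, which with PGC-1α drive mitochondrial genes, were near the bottom, with Esrra at 3.18 CPM and Esrrg at 3.12 CPM. Esrra and Nr1i3 had 0 counts in Cre- m4 at 30°C, where 3 counts, the limit that a count of 0 allows, equal 4.10 CPM.

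Cold moved few receptor genes. In Cre- mice 2 of 30 passed an adjusted p of 0.1 (6.67%), against 9.15% of the 12485 genes tested, with Nr3c1 higher at 8°C (5.57% of all genes were called higher) and Rarg lower (3.59% called lower). In BATdKO mice 3 of 30 passed (10%), against 7.07% of all genes, with Nr4a2 higher (3.76% of all genes called higher) and Rarg and Nr1d1 lower (3.31% called lower). At an unadjusted p under 0.05 there were 6 of 30 in Cre- (18.6% of all genes) and 4 of 30 in BATdKO (17.2% of all genes). The median absolute log2 difference was 0.139 for receptors and 0.148 for all genes in Cre-, and 0.134 and 0.15 in BATdKO. The share of receptors called was thus near that of other genes. The sign was the same in both genotypes for 20 of 30 receptors (66.7%) and for 61.5% of all genes, and these cold comparisons share no mice. Other cells' markers moved with cold too. Of 11 brown adipocyte markers 7 were higher at 8°C in each genotype, of 10 endothelial markers 4 were higher in Cre- and 2 in BATdKO, and of 12 stromal markers 1 was lower in Cre- and 3 in BATdKO. All 12 skeletal muscle markers had lower fitted levels at 8°C in each genotype, with medians of -2.09 in Cre- and -2.13 in BATdKO on the log2 scale, and 2 of them passed in Cre- and 0 in BATdKO. Of 9 adipocyte markers 1 was higher and 2 were lower in each genotype. Without both m6 libraries 5 adipocyte markers were higher and 2 lower in Cre-, and 6 muscle markers were lower there. The counts of both lists in BATdKO did not change. The adipocyte counts without both m6 libraries are fixed in part by that choice. Of the stromal markers 2 were then lower in each genotype. Of the mural markers 1 was higher in Cre-, of the Schwann and nerve markers 1, S100b, was higher in Cre- (1.71), and of the B cell markers 1, Ighm, was higher in BATdKO (1.01). Their part in the receptor differences was not tested.

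**Figure D3:**
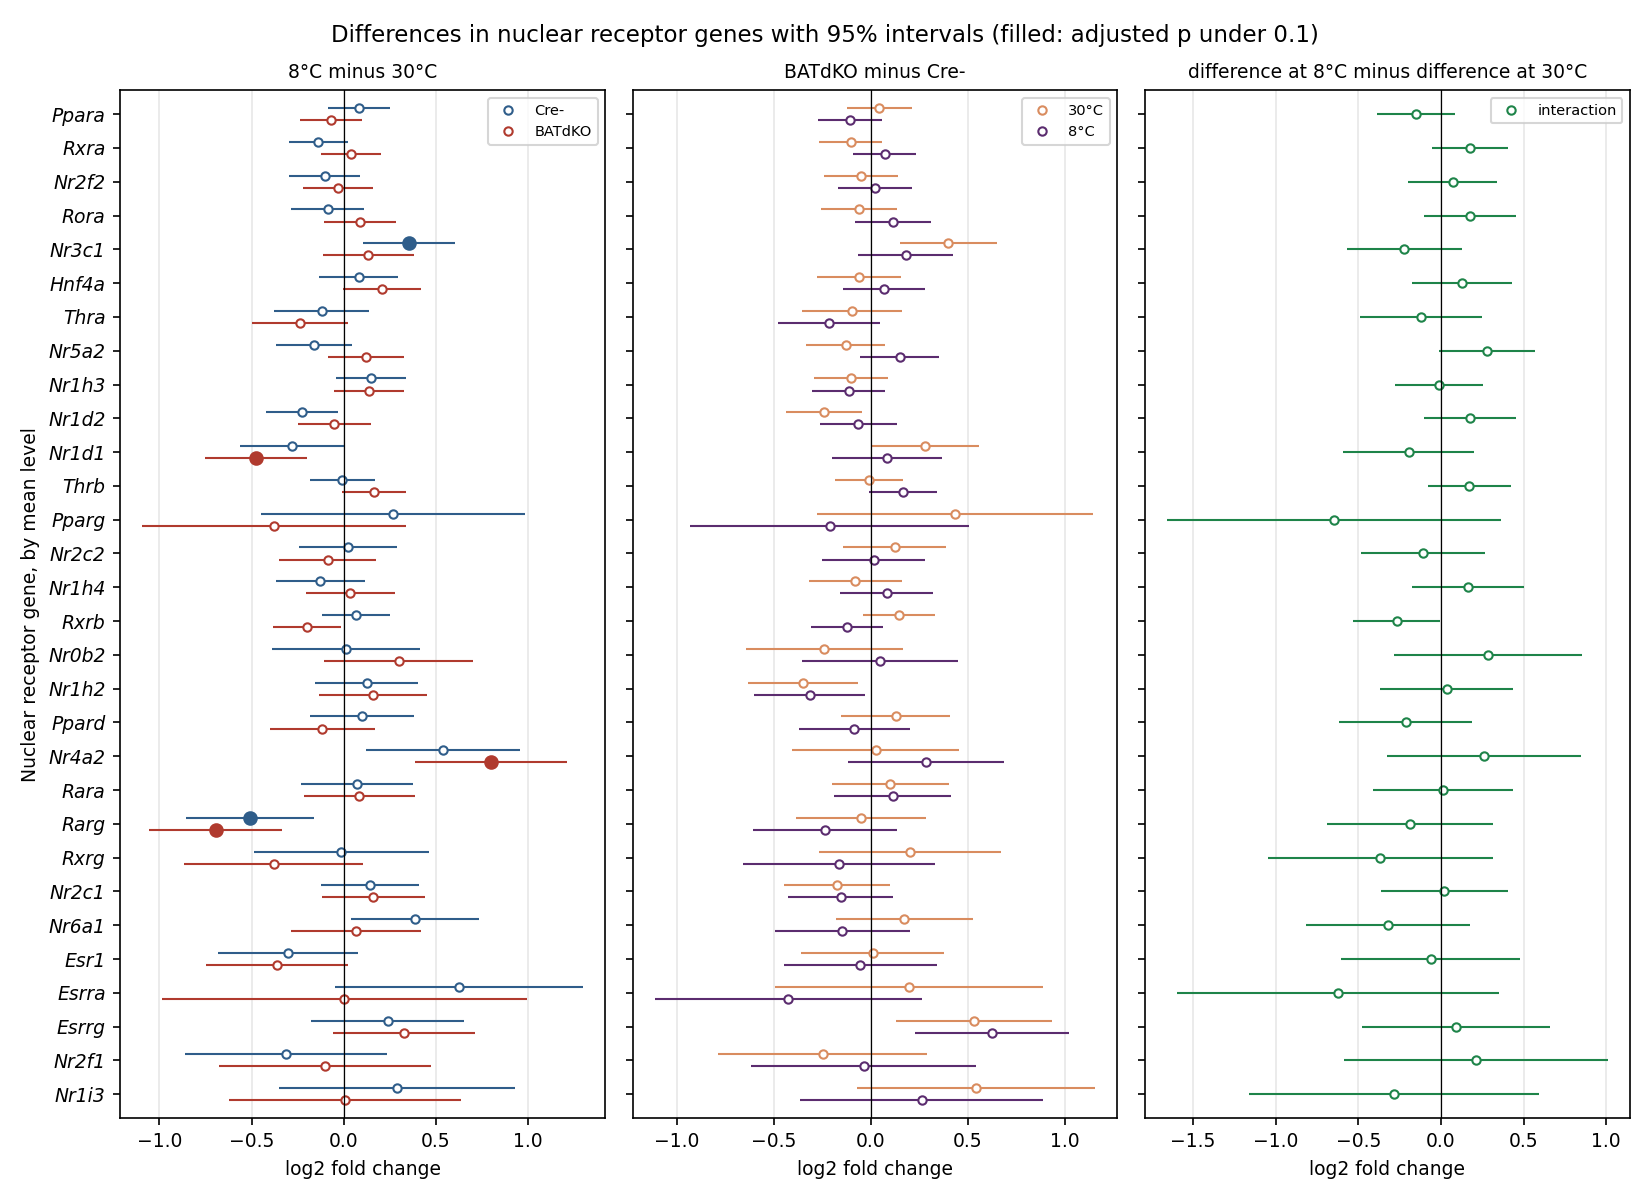
Log2 fold changes of the 30 receptor genes with 95% intervals for cold in each genotype (left), labelled genotype at each temperature (middle) and the interaction (right), ordered by mean level. Filled points passed an adjusted p of 0.1 and are Nr3c1 and Rarg in Cre- and Nr4a2, Rarg and Nr1d1 in BATdKO, all in the left panel.

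Rarg, a retinoic acid receptor (chromosome 15, 102234938 to 102257517 of GRCm38, minus strand), was the only receptor gene called in both genotypes. That is 1 of 30 receptors, beside 401 of 12485 for all genes, a similar share. In Cre- mice it ran from 6.83 to 11.3 CPM at 30°C (median 8.67) and from 5.08 to 7.68 CPM at 8°C (median 6.25). In BATdKO mice it ran from 6.20 to 12.3 CPM at 30°C (median 8.17) and from 3.41 to 6.94 CPM at 8°C (median 5.50). In each genotype the cold mice lay low and the warm mice high, with some overlap. The log2 difference was -0.51 ± 0.17 in Cre- (adjusted p = 0.0741) and -0.69 ± 0.18 in BATdKO (adjusted p = 0.0194). Without both m6 libraries the values were -0.58 (adjusted p = 0.0221) and -0.58 (adjusted p = 0.0475). The call in BATdKO held in all 24 fits that left out 1 mouse, and the call in Cre- in 16 of 24, with adjusted p up to 0.203. The median count behind a value was 48.

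Nr4a2 (chromosome 2, 57106830 to 57124003, minus strand) belongs to a family that is switched on within hours of adrenergic or cAMP signals. In BATdKO mice it ran from 5.41 to 9.59 CPM at 30°C (median 5.99) and from 7.43 to 15.8 CPM at 8°C (median 9.92), where m2 and m4 stood at 15.8 and 14.8 CPM. In Cre- mice it ran from 3.92 to 8.81 CPM at 30°C (median 5.65) and from 6.86 to 11.1 CPM at 8°C (median 9.15). Cold mice were mostly above warm mice in each genotype, with an overlap between them. The difference was 0.80 ± 0.20 in BATdKO (adjusted p = 0.0191), and the call held in all 24 fits without 1 mouse and without both m6 libraries (0.75, adjusted p = 0.0363). In Cre- it was 0.54 ± 0.20 and missed the threshold (adjusted p = 0.128), and passed it without both m6 libraries (0.61, adjusted p = 0.0733). The genotypes were not shown to differ in this response, since the interaction was 0.26 ± 0.29 (adjusted p = 0.864).

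Nr1d1 (REV-ERBα; chromosome 11, 98767932 to 98775333, minus strand) was called only in BATdKO mice. It ran there from 27.1 to 55.1 CPM at 30°C (median 38.6) and from 24.3 to 34.5 CPM at 8°C (median 29.0). In Cre- mice it ran from 23.2 to 38.6 CPM at 30°C (median 34.0) and from 25.7 to 29.6 CPM at 8°C (median 27.4). The 2 highest values of all 24 mice were BATdKO m5 and m6 at 30°C, at 52.0 and 55.1 CPM. The difference was -0.48 ± 0.14 in BATdKO (adjusted p = 0.04) and -0.28 ± 0.14 in Cre- (adjusted p = 0.266), with an interaction of -0.20 ± 0.19 (adjusted p = 0.845). The call was lost without BATdKO m5 or m6 at 30°C, and without both m6 libraries (-0.37, adjusted p = 0.108). Nr1d1 shares exon sequence at its 3′ end with Thra on the other strand, and whether counting used strand is not stated, so their reads may not be told apart. Thra itself differed by -0.24 ± 0.13 in BATdKO and -0.12 ± 0.13 in Cre- and passed in neither.

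Nr3c1 was called for cold only in Cre- mice. It ran from 39.6 to 61.0 CPM at 30°C (median 42.1) and from 45.1 to 66.7 CPM at 8°C (median 56.8) in Cre-, and from 44.9 to 68.2 CPM (median 62.1) and 59.6 to 84.5 CPM (median 61.2) in BATdKO. The 61.0 CPM was Cre- m6, and the other 5 warm Cre- mice lay between 39.6 and 43.7 CPM, below every cold Cre- mouse. The difference was 0.35 ± 0.12 in Cre- (adjusted p = 0.0844) and 0.13 ± 0.12 in BATdKO (adjusted p = 0.627), and the interaction was -0.22 ± 0.17 (adjusted p = 0.779). Without both m6 libraries it was 0.47 in Cre- (adjusted p = 0.00317), 0.06 in BATdKO (adjusted p = 0.852) and -0.42 for the interaction (adjusted p = 0.309). Those libraries held the highest warm Cre- and the lowest warm BATdKO value, so these differences are fixed in part by that choice. The call in Cre- held in 14 of 24 fits that left out 1 mouse.

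**Figure D4:**
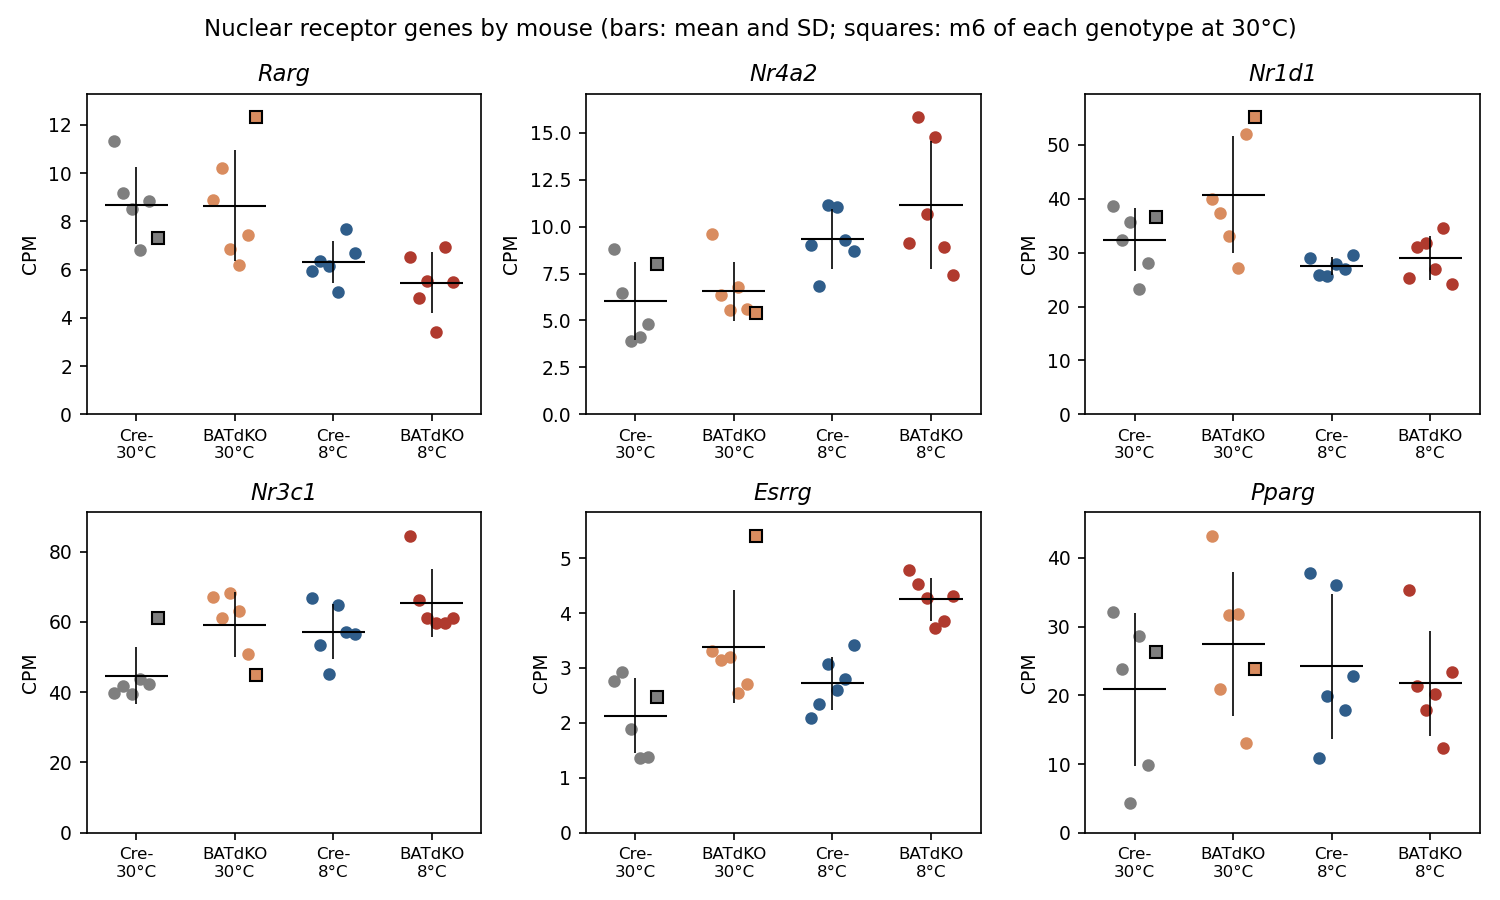
CPM of Rarg, Nr4a2, Nr1d1, Nr3c1, Esrrg and Pparg in each mouse, with the group mean and SD as lines and m6 of each genotype at 30°C as squares. Rarg passed as lower in the cold in both genotypes and Nr4a2 as higher in BATdKO mice, 5 of 6 warm Cre- mice hold 39.6 to 43.7 CPM of Nr3c1, and Esrrg does not overlap between genotypes at 8°C.

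Promoter sequence is shown for the 3 receptors called in BATdKO mice, as the stretch with matches or, for Nr1d1, the stretch next to the start site. The sequences are RefSeq promoter windows on GRCm38.p6, and all 30 members were looked up, of which 28 had a window. Each window was searched on both strands, over the 250 bases before the start site, for the receptor core AGGTCA, the cAMP response core TGACG and the E-box CACGTG. No matches overlap in these stretches. Matches are in capitals, and on the opposite strand they read TGACCT and CGTCA. Stretches run 5′ to 3′ on the gene's strand, and positions count back from the start site.
Rarg, chr15:102257653-102257772, minus strand, -250 to -131: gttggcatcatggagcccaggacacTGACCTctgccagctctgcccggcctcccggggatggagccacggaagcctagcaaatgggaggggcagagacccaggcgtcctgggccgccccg
Nr4a2, chr2:57124104-57124223, minus strand, -220 to -101: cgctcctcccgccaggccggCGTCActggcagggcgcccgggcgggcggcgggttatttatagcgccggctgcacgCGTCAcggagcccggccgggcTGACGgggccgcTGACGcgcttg
Nr1d1, chr11:98775378-98775497, minus strand, -120 to -1: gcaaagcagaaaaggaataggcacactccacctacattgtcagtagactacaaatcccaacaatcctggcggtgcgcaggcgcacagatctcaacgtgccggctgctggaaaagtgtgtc

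The Nr4a2 stretch holds TGACG or its reverse 4 times, starting at -200, -144, -123 and -111. Of 32851 RefSeq promoter windows, 17.8% held the core at least once and 0.137% held it at least 4 times, a number set after Nr4a2 was seen; Nr4a2 was the only receptor gene among the latter. The Rarg stretch holds the receptor core once, at -225, and the window of its other annotated start site holds none. AGGTCA was found in windows of 9 of the 28 receptor genes (Pparg, Nr1h4, Nr5a2, Rxra, Rxrg, Rarg, Thrb, Nr1d2 and Nr6a1), and 21.3% of the 47 receptor windows held it against 14% of all windows. TGACG was in 17% of the receptor windows. The E-box was in 8.51% of them and in 6.02% of all windows. The Nr1d1 window held none of the 3. These are letters in a window, and no binding was measured.

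For the other receptors the data set limits rather than differences. In Cre- mice the cold interval lay within 1 log2 unit on either side of 0 for 29 of 30 receptors and within 0.5 for 19, and in BATdKO mice for 27 and 18. Nr1d2, the paralogue of Nr1d1, differed by -0.23 ± 0.10 in Cre- (adjusted p = 0.182) and -0.05 ± 0.10 in BATdKO. Nr6a1 differed by 0.39 ± 0.17 in Cre- (adjusted p = 0.205), and Rxrb by -0.20 ± 0.09 in BATdKO (adjusted p = 0.235). Esrra had medians of 2.19 CPM (30°C) and 4.40 CPM (8°C) in Cre- mice from at most 56 counts, and its intervals reached from -0.05 to 1.30 in Cre- and from -0.99 to 0.99 in BATdKO.

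The labelled genotype gave no receptor call. At 8°C 0 of 30 passed with edgeR and 0 with DESeq2, against 1.82% of all genes in the first, and 2 of 30 had an unadjusted p under 0.05 (9.24% of all genes). At 30°C 0 of 30 passed with either tool, where edgeR called 0% of all genes, and 5 of 30 had an unadjusted p under 0.05 (10.4% of all genes). The median absolute difference of receptors was 0.118 at 8°C and 0.129 at 30°C, beside 0.115 and 0.123 for all genes. The 95% interval lay within 1 log2 unit of 0 for 28 of 30 receptors at each temperature. All 12 skeletal muscle markers had lower fitted levels under the BATdKO label, with medians of -3.09 at 8°C and -3.10 at 30°C. Of these, 11 and 10 had an unadjusted p under 0.05, and 0 passed. Without both m6 libraries 2 muscle markers were lower at 8°C and 6 at 30°C. At 30°C 5 brown adipocyte and 4 adipocyte markers were then higher, which is fixed in part by that choice. The part of these cells in the receptor differences was not tested.

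The receptor nearest the threshold at 8°C was Esrrg (chromosome 1, 187608791 to 188214885, plus strand), named here after its values were seen. It ran from 3.74 to 4.79 CPM in the 6 mice labelled BATdKO and from 2.09 to 3.42 CPM in Cre- mice, so the groups did not overlap. The difference was 0.62 ± 0.19 (adjusted p = 0.145), from 11 to 46 counts per library. Over the same mice the 2 B cell markers summed to 28.8 to 44.6 CPM under the BATdKO label and 19.0 to 23.5 CPM in Cre-, the 3 Schwann and nerve markers to 14.7 to 22.9 and 35.7 to 63.7 CPM, and the muscle markers to 8.02 to 168 and 18.4 to 1601 CPM, and their part in the Esrrg difference was not tested. Esrrg passed when only the 8°C mice were fitted (adjusted p = 0.0519) and without both m6 libraries (0.62, adjusted p = 0.07). Both m6 libraries are from 30°C, so leaving them out removes no 8°C mouse. Esrrg passed in 1 of 24 fits that left out 1 mouse and in 4 of 32 alternatives in all, with adjusted p up to 0.31. At 30°C the difference was 0.53 ± 0.20 (adjusted p = 0.322), and 0.37 (adjusted p = 0.497) without both m6 libraries, of which BATdKO m6 held the highest Esrrg of all mice (5.41 CPM).

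At 30°C the receptor with the smallest p was Nr3c1, higher in mice labelled BATdKO by 0.40 ± 0.12 (adjusted p = 0.21). Without both m6 libraries the difference was 0.59 (adjusted p = 0.00236), with 51.0 to 68.2 CPM against 39.6 to 43.7 CPM and no overlap. Cre- m6 held the highest Nr3c1 of its group (61.0 CPM) and BATdKO m6 the lowest of its own (44.9 CPM). The gap without them is thus fixed in part by that choice. The difference passed in 3 of 32 alternatives and in 1 of 24 fits that left out 1 mouse. When both m6 libraries were left out, the calls among all genes went from 0 to 500. Nr1h2 differed under the BATdKO label by -0.35 ± 0.14 at 30°C (adjusted p = 0.365) and -0.31 ± 0.14 at 8°C (adjusted p = 0.454), and passed at neither.

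In the interaction of genotype and temperature 0 of 30 receptors passed with edgeR and 0 with DESeq2, against 0.0961% of all genes in the first. At an unadjusted p under 0.05 there was 1 receptor, Rxrb, at -0.27 ± 0.13 (8.05% of all genes). Its means were 18.2 and 19.8 CPM at 30°C (Cre- and BATdKO) and 18.8 and 17.3 CPM at 8°C. For 25 of 30 receptors the interval lay within 1 log2 unit of 0, and for 13 within 0.5.

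Genes that act with the receptors were counted in lists chosen by name. Beside these counts, 9.15% of all genes were called for cold in Cre- (5.57% higher, 3.59% lower). The share was 7.07% for cold in BATdKO (3.76% higher, 3.31% lower) and 1.82% for the label at 8°C. These shares are with all mice and give no background for counts without both m6 libraries. In the interaction 0 genes of these lists passed with all mice, so the counts do not show that the genotypes differed in their response to cold. Without both m6 libraries 4 PPAR targets, 1 thyroid hormone target and 1 glucocorticoid receptor target passed there, all negative. Of 12 tested corepressor genes, 3 were higher in mice labelled BATdKO at 8°C, and they were Tbl1xr1, Tbl1x and Ncor1 (0 lower). Ncor1, the scaffold that binds unliganded receptors, was 246 to 286 CPM under the BATdKO label and 204 to 221 CPM in Cre- mice, without overlap (0.29 ± 0.07, adjusted p = 0.0496). Hdac3, the deacetylase of the complex, was at 1.96 to 5.90 CPM in all mice and passed in no comparison. At 30°C 0 of 12 corepressors passed, and 4 passed without both m6 libraries, all higher under the BATdKO label. These were Tbl1xr1, Tbl1x, Ncor1 and Nrip1, and Tbl1xr1 is the gene by which the m6 libraries were singled out, so this count is not independent of that choice. For cold 0 of 12 passed in either genotype with all mice, and 2 in each had an unadjusted p under 0.05.

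Of 17 coactivator genes tested, cold raised 3 in Cre- mice and 1 in BATdKO mice, and the label changed 0 at 8°C. Ppargc1a rose from 13.1 to 22.2 CPM (30°C) to 29.9 to 52.9 CPM (8°C) in Cre- mice (1.27 ± 0.16, adjusted p = 3.71e-06). In BATdKO mice it rose from 17.0 to 26.0 CPM to 31.4 to 57.1 CPM (0.95 ± 0.15, adjusted p = 0.00023), and the groups did not overlap in either genotype. Ncoa4 (0.59) and Ppargc1b (0.49) also rose in Cre- mice.

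Of 18 genes tested that supply or carry receptor ligands, cold raised 3 and lowered 1 in Cre- mice and raised 2 in BATdKO mice. Dio2, the deiodinase that makes active thyroid hormone inside brown fat, had the largest rise, 4.56 ± 0.38 in Cre- and 4.05 ± 0.33 in BATdKO. Without both m6 libraries the rise of Dio2 in Cre- was 5.29, and 5 ligand genes were higher in the cold there. Dio2 stood at 0 to 2.63 CPM in warm mice and 12.8 to 53.2 CPM in cold mice. Dhrs9, a retinol-oxidizing enzyme, rose in Cre- mice (2.09) and was lower under the BATdKO label at 8°C (-1.31). Fabp3, a fatty acid carrier, rose in BATdKO mice (2.46) and in the cold exceeded its Cre- level (1.42). These were the only ligand genes called between labels at 8°C.

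Textbook targets of the receptors were counted in the same way. Of 30 PPAR targets tested, cold raised 12 and lowered 2 in Cre- mice and raised 9 and lowered 3 in BATdKO mice, with list medians of 0.47 and 0.16 beside -0.02 and -0.0026 over all genes. Ucp1, the uncoupling protein, rose by 3.10 ± 0.44 in Cre- and 2.54 ± 0.43 in BATdKO, Plin5 by 0.76 and 0.67, and Slc25a20, the mitochondrial carnitine carrier, by 1.06 and 0.98. Angptl4, which inhibits lipoprotein lipase, fell by 1.28 in Cre- and by 0.67 in BATdKO. In the cold, mice labelled BATdKO held more of 4 PPAR targets, among them Lpl (1.01), Fabp3 (1.42) and Angptl4 (0.76), and less of 2, among them Slc27a1 (-1.03). Without both m6 libraries cold raised 20 PPAR targets in Cre- mice, and 11 were higher under the BATdKO label at 30°C, where 0 passed with all mice. At 8°C 4 were then higher and 4 lower under that label. No share over all genes is given for the cold count without both m6 libraries, so it is not set against a background. The cold rise of Ucp1 was then 3.89 in Cre- and 2.34 in BATdKO. Its difference between labels at 30°C was then 1.67 (adjusted p = 0.000718) and its interaction -1.55 (adjusted p = 0.0651). The limit given above applies to this gene and to the counts of its list. With all mice 0 of 30 PPAR targets, Ucp1 among them, passed for the label at 30°C or for the interaction.

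Of 11 thyroid hormone targets cold raised 6 in Cre- mice and 5 in BATdKO mice and lowered 0. Dio2, Ucp1, Me1 (malic enzyme; 1.02 and 0.54) and Thrsp (0.88 and 0.60) rose in both. At 8°C 2 of the 11, Acaca (-0.91) and Fasn (-0.60), which make fatty acids, were lower under the BATdKO label. Of 19 targets of the oestrogen-related receptors cold raised 5 in Cre- and 4 in BATdKO and lowered 0. They included Acadm (0.96 and 0.61), Cycs (0.52 and 0.55) and Mdh2 (0.28 and 0.32), enzymes and carriers of mitochondrial oxidation, and the label changed 0 of 19 at 8°C.

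Of 15 glucocorticoid receptor targets cold raised 3 and lowered 1 in Cre- and raised 3 and lowered 2 in BATdKO, with medians of -0.04 and 0.02. In Cre- 5 were higher and 2 lower without both m6 libraries. Sgk1 (0.95 and 0.72), Cdkn1a (0.77 and 1.31) and Dusp1 (0.97 and 0.97) rose in both. Of 11 cAMP and NR4A targets cold raised 5 and lowered 1 in Cre- and raised 6 and lowered 1 in BATdKO. Sik1 (2.01 and 1.20) and Pde4d (1.22 and 0.77) rose beside Dio2 and Ppargc1a, and Jun fell (-0.80 and -0.93). In Cre- 5 were higher and 2 lower without both m6 libraries.

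Of 10 LXR targets 1 was called for cold in Cre- (Fasn, 0.84) and 0 in BATdKO, near the shares of 9.15% and 7.07% over all genes. In Cre- 3 were higher in the cold without both m6 libraries, and 3 were higher under the BATdKO label at 30°C. Between labels at 8°C the cholesterol exporter Abca1 was higher in BATdKO (0.46), and Fasn and Smpdl3a (-0.62) were lower. Of 9 REV-ERB and ROR targets cold raised 2 in each genotype, Plin2 (0.44 and 0.47) and Elovl3 (0.37 and 0.69), and lowered 1 in Cre- (Bhlhe41, -0.96). Of 7 other clock genes 1 fell in each genotype, Per3 (-0.44 and -0.49; 2 fell in Cre- without both m6 libraries), and 1, Hlf, differed between labels at 8°C (0.59 higher in BATdKO). With both m6 libraries left out and 500 genes called between labels at 30°C, the calls there, 0 in these lists with all mice, were 1 coactivator, 3 ligand genes, 2 thyroid hormone targets, 3 glucocorticoid receptor targets, 1 REV-ERB and ROR target and 1 other clock gene, all higher under the BATdKO label. They were also 2 higher and 1 lower of the oestrogen-related receptor targets, and 3 higher and 1 lower of the cAMP and NR4A targets. For cold in BATdKO mice 1 corepressor was then lower, and 3 glucocorticoid receptor targets were. Some genes stand in several lists, so the counts of lists are not independent of each other.

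**Figure D5:**
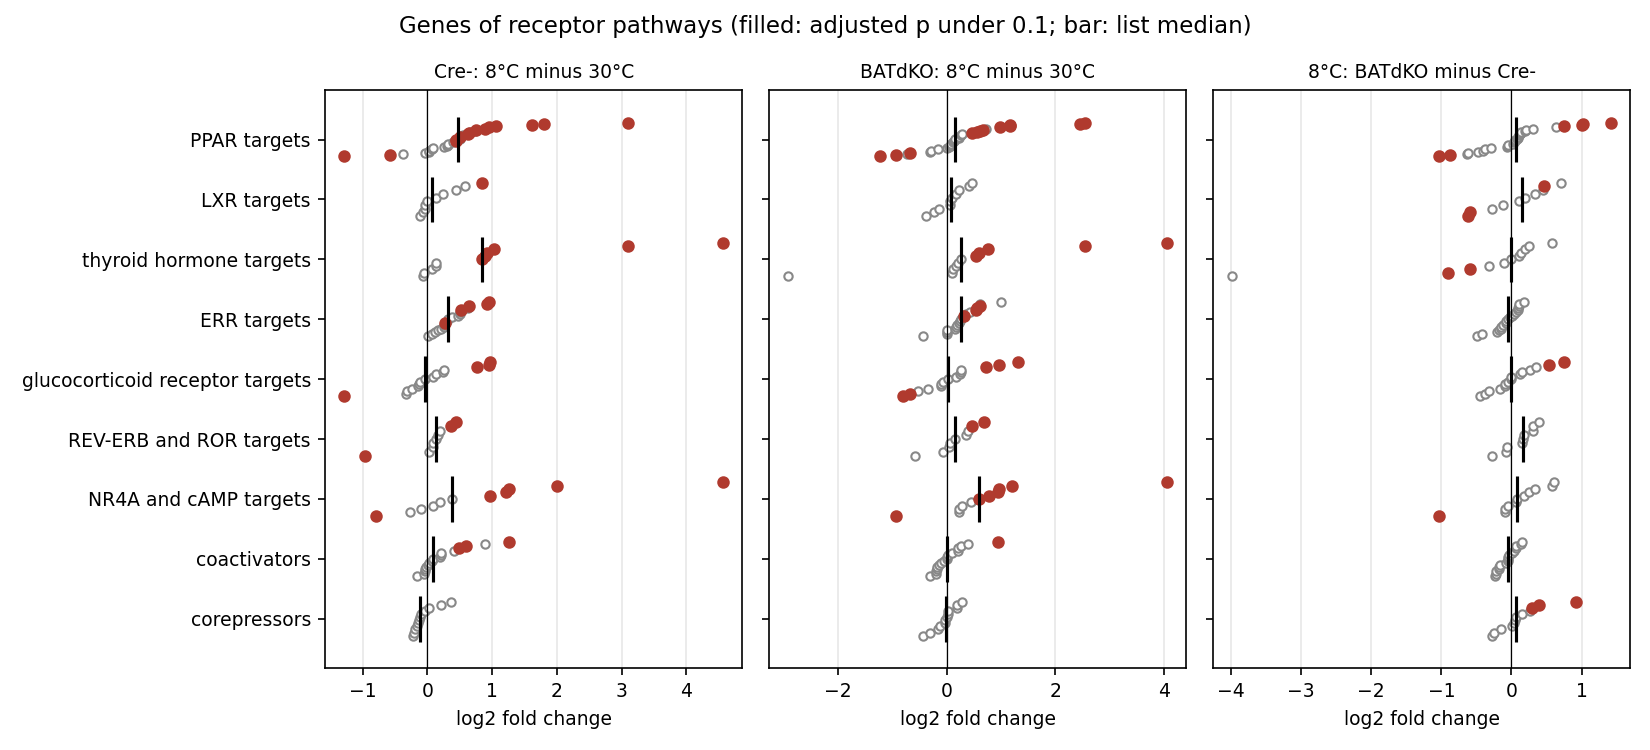
Log2 fold changes of genes in 9 receptor pathway lists for cold in Cre- mice, cold in BATdKO mice and labelled genotype at 8°C. Each point is a gene, filled where the adjusted p was under 0.1, and bars are list medians. In the cold the median of PPAR targets is 0.47 in Cre- mice and 0.16 in BATdKO mice, and Dio2 lies farthest to the right at 4.56 and 4.05. With all mice 0 of 30 PPAR targets passed for the interaction, which is not drawn.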

How the data were processed

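The authors deposited raw gene counts from 3′ tag libraries (Lexogen QuantSeq FWD) of 24 mice; per their methods, reads were trimmed with BBDuk, aligned to GRCm38 with STAR and counted with Rsubread. The annotation release, the use of strand and the rule behind the listed genes are not given in the sources used here. Ensembl identifiers were matched to symbols for 12608 of 12615 genes. Groups came from the genotype and treatment labels, and m1 to m6 only name the mice within a group. The study's methods speak of removed outliers without naming them, so all 24 libraries were kept. Replicates were compared pairwise, and the mean chi-square per gene was 2.61 to 63.2, so no pair differed as little as sampling noise. The floor of 3 counts covers counting error only, and the tags were not counted as unique molecules.

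Genes were filtered with filterByExpr, which left 12485 and removed 130, and tested with edgeR 4.0.16 in R 4.3.3 (TMM, quasi-likelihood test with glmQLFit and glmQLFTest, a mean per group, all 24 libraries in the fit). P-values were adjusted by Benjamini-Hochberg over all tested genes, and 0.1 was the threshold, as in the study. Every adjusted p given is from this fit unless another setting is named. Values after ± are standard errors, computed as the absolute log2 fold change over the square root of F, and intervals are 95%. The scripts were tested on simulated data.

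The 38 receptors, the pathway lists and the marker lists were chosen with earlier results of these data known. Full values were given for receptors past the threshold and for the 5 with the highest mean, and at most 4 genes per list and comparison were named, by smallest p, beside Ncor1, Hdac3, Tbl1x, Tbl1xr1 and Ppargc1a. Other genes were named after their values were seen. Alternatives were DESeq2 1.42.0, RLE size factors, no filter, a mean count of at least 10, robust dispersion, only the groups compared, and each mouse left out in turn (24 fits). Leaving out both m6 mice at 30°C, alone or with Cre- m4, was chosen after seeing the data. Gene positions are from GENCODE vM21 and promoter windows from RefSeq, both on GRCm38. Some genes are not reported here.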

Additional observations from a re-analysis of the deposited data

Results flagged for a closer look

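In 15 of 120 sets of 6 mice (a receptor in a group), the highest or lowest mouse stood apart from the other 5 by more than 0.625 of the range. Chance gives this in about 1 in 20 sets. The gap and the range were taken on log2 CPM with a small prior count, while the values below are CPM. Of these, 5 were in BATdKO m6 at 30°C. It held the lowest values of its group for Hnf4a (33.5 CPM, group median 51.8), Rxrg (3.15 CPM, median 7.52), Nr2f1 (1.20 CPM, median 2.09) and Nr0b2 (3.15 CPM, median 9.37), and the highest for Esrrg (5.41 CPM, median 3.17). Cre- m6 at 30°C held the highest Nr3c1 of its group (61.0 CPM, median 42.1). These are the libraries whose Tbl1xr1 lay among those of the other label.

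Another 5 were in Cre- m4 at 30°C, the library with 699703 counts, where 3 counts equal 4.10 CPM. It was lowest for Rara (2.73 CPM, group median 7.63) and at 0 CPM for Nr1i3 (median 0.885) and Esrra (median 2.19), and highest for Nr2f1 (6.83 CPM, median 2.57) and Nr0b2 (16.4 CPM, median 10.4).

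Of the other 4, Ppara was lowest in Cre- m1 at 30°C (178.7 CPM, median 215). Nr6a1 was lowest in Cre- m2 at 8°C (4.68 CPM, median 6.39) and in BATdKO m5 at 8°C (3.54 CPM, median 5.68). Nr3c1 was highest in BATdKO m1 at 8°C (84.5 CPM, median 61.2).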

How the results depend on the processing

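No paired analysis was possible because the labels give each mouse a number of its own and the groups share none. RLE and DESeq2 size factors moved the median of all genes by at most 0.0022 on the log2 scale. The receptors called numbered 0 for genotype at 8°C, 2 for cold in Cre-, 3 for cold in BATdKO, 0 for genotype at 30°C and 0 for the interaction, and DESeq2 called the same numbers. With only the groups compared in the fit there were 1 for genotype at 8°C (all genes 477) and 1 for cold in Cre-. Without both m6 mice at 30°C there was 1 for genotype at 8°C (Esrrg) and 1 for genotype at 30°C (Nr3c1; all genes 500), and 44 genes for the interaction. With Cre- m4 also left out there were 1, 4 (cold in Cre-; all genes 1766) and 1 (all genes 546), and again 44 for the interaction. Over all genes DESeq2 gave 90 for genotype at 30°C, where edgeR gave 0, and 51 for the interaction, where edgeR gave 12 and robust dispersion 21; the cause was not tested.

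Leaving out 1 mouse at a time gave 0 to 1 receptors for genotype at 8°C (all genes 138 to 276), 0 to 3 for cold in Cre- (791 to 1343), 2 to 3 for cold in BATdKO (574 to 1069), 0 to 1 for genotype at 30°C (0 to 369) and 0 for the interaction (7 to 37). The 1 at 8°C came without BATdKO m6 at 30°C and the 1 at 30°C without Cre- m6, and the 0 for cold in Cre- came without Cre- m2 at 30°C, among others. Of 288 results for 9 receptor differences under 32 alternatives, 253 kept their side of the threshold, 22 lost and 13 gained the call, and none changed direction. The 9 were those that passed in the main fit or in an alternative, so they do not stand for all receptors. The sign held in every alternative for 24, 26, 22, 23 and 21 of 30 receptors in the 5 comparisons in the order above. Depth limits the low receptors: Esrra, Nr1i3, Esrrg and Nr2f1 had median counts of 20, 8.5, 22.5 and 13.5 per library.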
